A study of Mus musculus with 9 samples.

Results

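CpG methylation was described at 10 genes of myeloid cells and granulocytes, S100a8, S100a9, Itgam, Csf1r, Fcer1g, Mmp9, Lyz2, Mpo, Elane and Spi1, in purified mouse B cells. The genes were taken by name, each as its span in GRCm38 with 5000 bp on either side, and they are 10 of 20665 autosomal protein-coding genes in the reference table. Their windows held 3225 CpGs, of which 2983 were covered in every library.

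The series used whole-genome bisulfite sequencing, in which unmethylated cytosines are converted and methylated ones are kept, to compare genotypes of Kmt2d, the gene of a histone H3K4 methyltransferase. B cells were enriched from spleen by magnetic removal of other cells, without treatment, and came from wild type mice (WT), mice heterozygous for Kmt2d Ile5482Asn (HET) and mice homozygous for it (HOM). The change is A>T at position 98835228 of chromosome 15. The labels list 2 B cell samples per genotype and 1 blood sample per genotype, and blood was not analysed here. ENU, the name of a chemical mutagen, stands in the column names of both mutant genotypes and not in that of WT. The age, sex and background strain of the mice are not given in the sources used here.

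Myeloid genes are expressed in neutrophils, monocytes and macrophages, where their promoters and enhancers are bound by PU.1 and C/EBP factors and lose DNA methylation during differentiation. B cells arise from a lineage that leaves the myeloid branch, and most genes of granule proteins are silent in them. PU.1 itself, the product of Spi1, also acts in B cells.

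Each genotype has a single set of counts, here named a library after its genotype, and without replicates the differences below could not be checked against the spread between mice. The sources used here do not give whether a library is 1 sample or a pool. Mean depth per CpG was 9.18, 12.9 and 9.85 reads for WT, HET and HOM. A level is the share of CpG reads that were methylated, summed over a region, with a 95% Wilson interval. Over CpGs more than 4000 bp from any CpG island, the level was 81.6%, 80.9% and 78.1% in WT, HET and HOM, so levels in HOM were lower by a few points across most of the genome.

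Starts of the S100a8, Fcer1g and Mpo genes were partly methylated in every library. Low-methylated stretches at these 3 starts were more methylated in HOM than in WT, by 15.3 to 33.5 percentage points. These 3 stretches were picked because HOM and WT were called different there, by the limits given below. With each read counted 1 time, the intervals included 0 at S100a8 (-0.865 to 32.1) and Fcer1g (-0.855 to 52.3). At Mpo that interval was 2.65 to 27.0 points, with the reads of a pair still counted separately. At S100a8, HET was higher than WT as well. In bulk DNA, more cells of another type and a changed level in the same cells cannot be told apart. Single CpGs at the starts of Lyz2 and Itgam, and in the stretch at Mpo, were at or near 0% in all 3 libraries. From 1000 bp outside to 500 bp inside the gene start, Lyz2 and Itgam stood at 35.2% and 64.1% in WT. The promoter sequences below show how few CpGs carry these values. They run from 250 bp before to 50 bp after the gene start, 5′ to 3′ on the strand of the gene, from RefSeq (GRCm38.p6), with each CG in capitals. The table matched 7 of the 10 genes, and Csf1r, Mmp9 and Spi1 are described by the ends of their spans only. S100a8 (chr3:90668821-90669120, plus strand), Fcer1g (chr1:171234300-171234599, minus strand) and Mpo (chr11:87793534-87793833, plus strand) are shown for their differences between libraries, and Itgam (chr7:128062390-128062689, plus strand) and Lyz2 (chr10:117282223-117282522, minus strand) for their low CpGs.
S100a8: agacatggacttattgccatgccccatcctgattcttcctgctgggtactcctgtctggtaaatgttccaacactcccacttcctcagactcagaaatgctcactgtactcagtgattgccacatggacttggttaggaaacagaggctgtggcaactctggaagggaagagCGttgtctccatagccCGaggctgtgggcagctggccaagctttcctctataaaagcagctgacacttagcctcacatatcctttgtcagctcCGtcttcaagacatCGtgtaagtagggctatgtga
Fcer1g: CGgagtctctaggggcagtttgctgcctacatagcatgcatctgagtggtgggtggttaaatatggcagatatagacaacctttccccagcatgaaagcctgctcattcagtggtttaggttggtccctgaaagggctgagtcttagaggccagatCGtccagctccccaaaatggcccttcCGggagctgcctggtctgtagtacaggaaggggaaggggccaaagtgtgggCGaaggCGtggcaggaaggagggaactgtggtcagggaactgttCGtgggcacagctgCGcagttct
Mpo: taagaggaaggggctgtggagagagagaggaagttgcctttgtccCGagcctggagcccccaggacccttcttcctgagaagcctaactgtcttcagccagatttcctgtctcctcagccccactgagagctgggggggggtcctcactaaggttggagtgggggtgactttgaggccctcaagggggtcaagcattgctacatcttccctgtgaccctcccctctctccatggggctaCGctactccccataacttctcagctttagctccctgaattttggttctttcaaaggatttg
Itgam: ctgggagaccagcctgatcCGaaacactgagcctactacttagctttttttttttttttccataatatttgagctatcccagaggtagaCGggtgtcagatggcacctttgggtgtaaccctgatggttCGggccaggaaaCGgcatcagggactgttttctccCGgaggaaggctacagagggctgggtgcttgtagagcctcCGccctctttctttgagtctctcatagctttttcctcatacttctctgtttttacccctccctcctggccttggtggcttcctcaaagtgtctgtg
Lyz2: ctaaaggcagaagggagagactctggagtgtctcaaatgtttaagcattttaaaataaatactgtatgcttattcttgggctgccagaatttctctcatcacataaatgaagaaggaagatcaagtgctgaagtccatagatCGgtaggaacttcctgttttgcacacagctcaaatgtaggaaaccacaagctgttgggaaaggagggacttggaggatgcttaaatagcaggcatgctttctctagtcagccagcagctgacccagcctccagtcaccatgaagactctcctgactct

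The S100a8 promoter held 4 CpGs, Fcer1g 7, Mpo 2, Itgam 6 and Lyz2 1, beside 2 in S100a9 and 6 in Elane. Over these 300 bases the S100a8 level was 32.5%, 51.9% and 50.5% in WT, HET and HOM, from 80, 104 and 107 CpG reads. Fcer1g stood at 32.9%, 40.0% and 42.8%, from 73, 205 and 145 CpG reads. Mpo stood at 31.0%, 51.2% and 51.3%, from 29, 43 and 39 CpG reads. The intervals of the libraries overlapped at each of these promoters. The Itgam promoter was low, at 8.62%, 7.94% and 7.14%. For comparison, the median of 21839 promoters of the same length was 1.89%, 1.87% and 1.72% in WT, HET and HOM. Those promoters had at least 30 CpG reads in every library, which the Mpo, S100a9 and Lyz2 promoters did not, so the comparison is not like for like. The promoters of S100a9 (66.7%, 80.0% and 55.6%) and Elane (49.2%, 51.1% and 61.9%) had the highest levels of the 7 in WT. Those of S100a9 rest on 24, 25 and 18 CpG reads, with an interval of 46.7 to 82.0% in WT. The Elane interval in WT (37.5 to 61.1%) overlapped those of S100a9, S100a8, Fcer1g and Mpo. The single CpG of the Lyz2 promoter had 0 methylated reads of 19, 37 and 26, which allows a level of up to 15.8%, 8.11% and 11.5% (3 reads of the total).

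The core recognised by PU.1, GAGGAA, was searched on both strands of these 7 promoters, and so was the C/EBP motif TTGCNNAA. GAGGAA occurred 2 times on the opposite strand in S100a8, 3 times in Itgam (1 on the strand shown), 2 times in Mpo and 1 time in Elane, both on the strand of the gene. It was found in 28.2% of 31396 promoters. TTGCNNAA occurred 1 time, in S100a9, and in 10.9% of all promoters. No match to either was found in Fcer1g or Lyz2. A match is a description of letters, not evidence of binding.

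Each gene end was measured from 1000 bp outside to 500 bp inside the span, and a region was called different where 2 libraries differed by at least 10 percentage points with an adjusted p below 0.05 (two-sided Fisher's exact test on CpG reads, Benjamini-Hochberg adjusted over all regions of that kind). That test compares libraries, not genotypes. All 20 end windows had enough CpGs and reads. Between HOM and WT, 3 of 20 were called and all 3 were higher in HOM, the starts of S100a8 and Fcer1g and the lower-coordinate end of Mmp9. Of all 37413 windows, 5.22% were called, 0.997% higher and 4.22% lower. Between HET and WT, 2 member windows were higher (the starts of S100a8 and Itgam) and 1 was lower (the upper-coordinate end of Csf1r), against 2.52% of all windows called, 1.22% higher and 1.30% lower. Between HOM and HET, 2 were lower (the 3′ end of Fcer1g and the upper-coordinate end of Mmp9), against 4.34% called, 0.818% higher and 3.53% lower. With levels scaled to equal open sea the split between HOM and HET became 3 higher and 0 lower. In windows of 500 bp on each side it was 2 higher and 1 lower, and between HOM and WT 3 higher and 1 lower. With 20 windows, 1 call is 5% of them, and these shares are read as counts.

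The median difference of the 20 windows was -1.93 points between HOM and WT (all windows -1.64), 2.10 points between HET and WT (all -0.17) and -3.43 points between HOM and HET (all -1.40). CpGs on 1 read are not independent, and the test treats them as if they were. An alternative counted each read about 1 time, by dividing a region's counts by its CpGs per read. Under it, none of the 16 called member results of any kind kept its call. Between HOM and WT it called 5 of all 37413 end windows (0.0134%), 0.134% of all low-methylated runs and 1.62% of all gene bodies. Of all bodies, it called 0.199% between HET and WT and 1.09% between HOM and HET, the comparisons in which a member body was called. In wider windows, from 2000 bp outside to 1000 bp inside an end, the 2 calls at the S100a8 start were kept. The other 6 end-window calls were lost, and other windows gained calls, 1 of them lower between HOM and WT. Intervals with each read counted 1 time are given beside the called regions, and every interval covers counting error only. A read was taken as 150 bp there, so the reads of a pair still counted separately and these intervals can be too narrow.

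**Figure D1:**
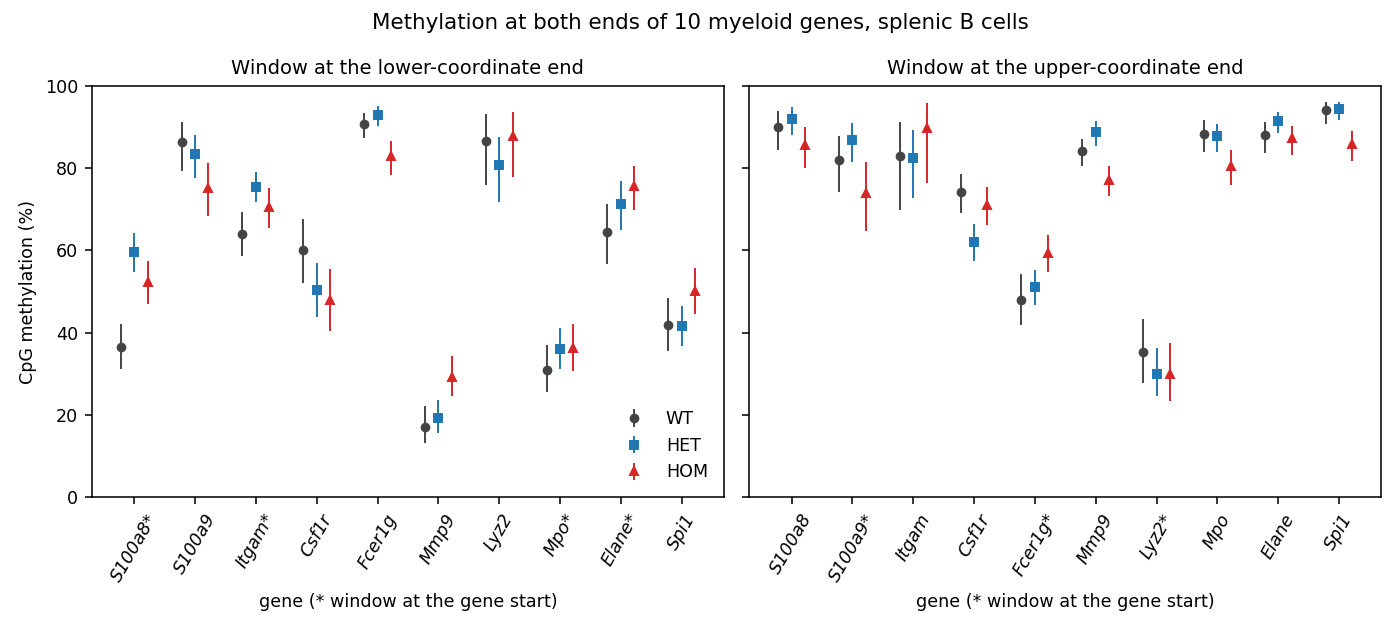
CpG methylation (%) at the lower-coordinate end (left) and upper-coordinate end (right) of the 10 genes in WT, HET and HOM B cells. Points are levels summed over a window and bars are 95% Wilson intervals, and a star marks a window known to hold the gene start. The S100a8 start is at 36.5% in WT and above 50% in both mutant libraries, while the 7 windows at known 3′ ends lie between 75.3% and 93.0%.

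Among the genes of secreted and granule proteins, S100a8 differed most. It encodes 1 subunit of calprotectin, a calcium- and zinc-binding protein that is abundant in neutrophils, and S100a9 encodes the other. The S100a8 start window (chromosome 3, 90668071 to 90669570, 15 CpGs) had a level of 36.5%, 59.7% and 52.2% in WT, HET and HOM, from 285, 409 and 339 CpG reads. WT was the low library, and its interval (31.1 to 42.2%) did not overlap those of HET (54.8 to 64.3%) or HOM (46.9 to 57.5%). HET exceeded WT by 23.2 points (95% Newcombe interval 15.7 to 30.3, Fisher's exact test, Benjamini-Hochberg adjusted p = 1.13e-06). HOM exceeded WT by 15.7 points (7.90 to 23.2, adjusted p = 0.00336 by the same exact test). With each read counted 1 time the intervals were 8.69 to 35.3 and 0.679 to 28.6 points, and averaged over CpGs the differences were 17.1 and 13.1 points.

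Within this window a low-methylated run of 9 CpGs (90668993 to 90669249) stood at 22.3%, 45.5% and 39.6% in WT, HET and HOM, and it shares its reads with the window. Such runs held 4 or more CpGs, spanned 100 bp or more, and were placed where the mean of the libraries, averaged over 3 neighbouring CpGs, fell under 50%. HET was higher than WT at all 9 CpGs of the S100a8 run, and HOM at 7 of them. At the CpG at position -62 bp from the S100a8 start, 0 of 17, 7 of 27 and 14 of 29 reads were methylated for WT, HET and HOM. At the CpG at 114 bp downstream the counts were 2 of 24, 14 of 29 and 7 of 27. HET was highest at some CpGs of the run and HOM at others. With about 4 CpGs of the run on a read, neighbouring CpGs share reads and are not separate evidence. With each read counted 1 time, the interval of HET minus WT over the run was 5.35 to 37.9 points, and that of HOM minus WT was -0.865 to 32.1. Runs found on HET alone gave no match to this run, so HOM against WT has no value from the library not compared.

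The downstream side of S100a8 was methylated in every library, at 90.1%, 92.1% and 85.7% in WT, HET and HOM, with no call. S100a9 had no low-methylated run. Its start window stood at 82.0%, 86.9% and 74.0% in WT, HET and HOM, its 3′ end at 86.4%, 83.5% and 75.3%, and its body at 77.4%, 69.5% and 70.6%. No S100a9 region was called, and whether its differences depart from those of S100a8 was not tested.

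Mpo encodes myeloperoxidase and Elane encodes neutrophil elastase, both enzymes of the primary granules of neutrophils. The Mpo start window stood at 31.0%, 36.1% and 36.3% in WT, HET and HOM, without a call. The run that ends just before the Mpo start (chromosome 11, 87793124 to 87793774, 7 CpGs) stood at 18.1%, 28.1% and 33.3% in WT, HET and HOM, from 155, 196 and 153 CpG reads. HOM exceeded WT by 15.3 points there (5.52 to 24.7, Fisher's exact test, Benjamini-Hochberg adjusted p = 0.0406), at 6 of 7 CpGs, and the interval with each read counted 1 time was 2.65 to 27.0. The CpGs of this run were not alike, since the CpG at position -205 bp from the Mpo start had 0 methylated reads of 15, 15 and 11, and that at -11 bp had 9 of 14, 22 of 28 and 20 of 28. The other 3 Mpo runs were not called, although run 3, inside the gene, stood at 22.9%, 23.7% and 38.8%.

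At Elane the start window stood at 64.4%, 71.4% and 75.6% in WT, HET and HOM, the 3′ end at 88.0%, 91.5% and 87.2%, and the body at 84.8%, 85.0% and 89.0%. None was called. Elane was the only member whose body was higher in HOM than in WT, by 4.20 points with an interval that included 0 (-1.71 to 10.5). All 4 runs near Elane lay outside its span, run 1 in the neighbouring protease gene Prtn3 (15.3%, 14.5% and 19.7%) and run 4 in the complement gene Cfd (4.40%, 3.70% and 2.56%). Prtn3 stood at 65.1%, 58.6% and 58.9% at its own start and at 45.4%, 42.5% and 44.6% at its 3′ end. Among the other members, neighbours inside the 5000 bp included those of Csf1r (Hmgxb3), Fcer1g (Apoa2), Mmp9 (Slc12a5), Mpo (Lpo) and Spi1 (Mybpc3).

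Lyz2 encodes the lysozyme of macrophages and granulocytes. Its start window was next above that of Mpo among the 7 known start windows in WT, at 35.2%, 30.04% and 29.9% in WT, HET and HOM, and its run across the start stood at 22.0%, 21.6% and 19.0%. The intervals of the differences between libraries included 0 at both, for example -15.8 to 5.29 points for HOM minus WT over the start window. The Lyz2 body stood at 74.9%, 85.0% and 69.3% in WT, HET and HOM, from 299, 340 and 280 CpG reads, with HET the high library. HET exceeded WT by 10.1 points (3.88 to 16.3, Fisher's exact test, Benjamini-Hochberg adjusted p = 0.0106), and HOM was below HET by -15.7 points (-22.3 to -9.11, adjusted p = 1.53e-05 by the same exact test). With each read counted 1 time these intervals were -2.32 to 20.7 and -27.6 to -3.23.

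Reads were spread unevenly over the Lyz2 body. Its 7 CpGs within 1000 bp of the start took 113, 54 and 82 of the body's reads for WT, HET and HOM, at 53.1%, 57.4% and 52.4%. Farther from the start the level was 88.2%, 90.2% and 76.3% in WT, HET and HOM. Averaged over CpGs instead of reads, HET minus WT was 4.60 points, and HOM minus HET was -12.9 points.

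The Mmp9 gene, for a secreted gelatinase of neutrophils and macrophages, was the least methylated of the 10 along its length. The Mmp9 body (323 CpGs) stood at 38.5%, 37.6% and 36.0% in WT, HET and HOM, which was the percentile 6.59 of all bodies in WT. Mmp9 and its flanks held 9 tested runs, the most of any member, from 4.07% (run 5) to 32.5% (run 4) in WT. The lower-coordinate end of Mmp9 (chromosome 2, 164939326 to 164940825, 25 CpGs) stood at 17.2%, 19.4% and 29.2% in WT, HET and HOM, from 262, 382 and 332 CpG reads. HOM was the high library and exceeded WT by 12.0 points (5.20 to 18.6, Fisher's exact test, Benjamini-Hochberg adjusted p = 0.0126), and the interval with each read counted 1 time included 0 (-0.637 to 23.4). The flank beyond this window went the other way, at 47.8%, 38.9% and 32.6% over the next 93 CpGs, from 812, 1299 and 1212 CpG reads. Run 1, which lies partly in this flank, stood at 7.66%, 10.2% and 7.82%, from 457, 869 and 831 CpG reads. The summed level of the flank thus depends on how reads are spread, and it was not averaged over CpGs. In the wider window HOM minus WT was 2.20 points, without a call. At the other end of Mmp9 the levels were 84.1%, 88.7% and 77%, and HOM was below HET by -11.7 points (-16.4 to -6.87, adjusted p = 0.00019 by the same exact test). Counting each read 1 time gave -19.8 to -3.04, and the difference was -6.16 points over CpGs with at least 5 reads in every library and -3.54 points in the wider window, without a call in either.

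The longest run of the set was run 7 of Mmp9, with 108 CpGs over 2153 bp. It stood at 16.0%, 10.4% and 15.1% in WT, HET and HOM. HET minus WT was -5.55 points there and HOM minus HET 4.74 points (Fisher's exact test, Benjamini-Hochberg adjusted p = 0.000338 for HET against WT), short of the 10 points of a call.

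**Figure D2:**
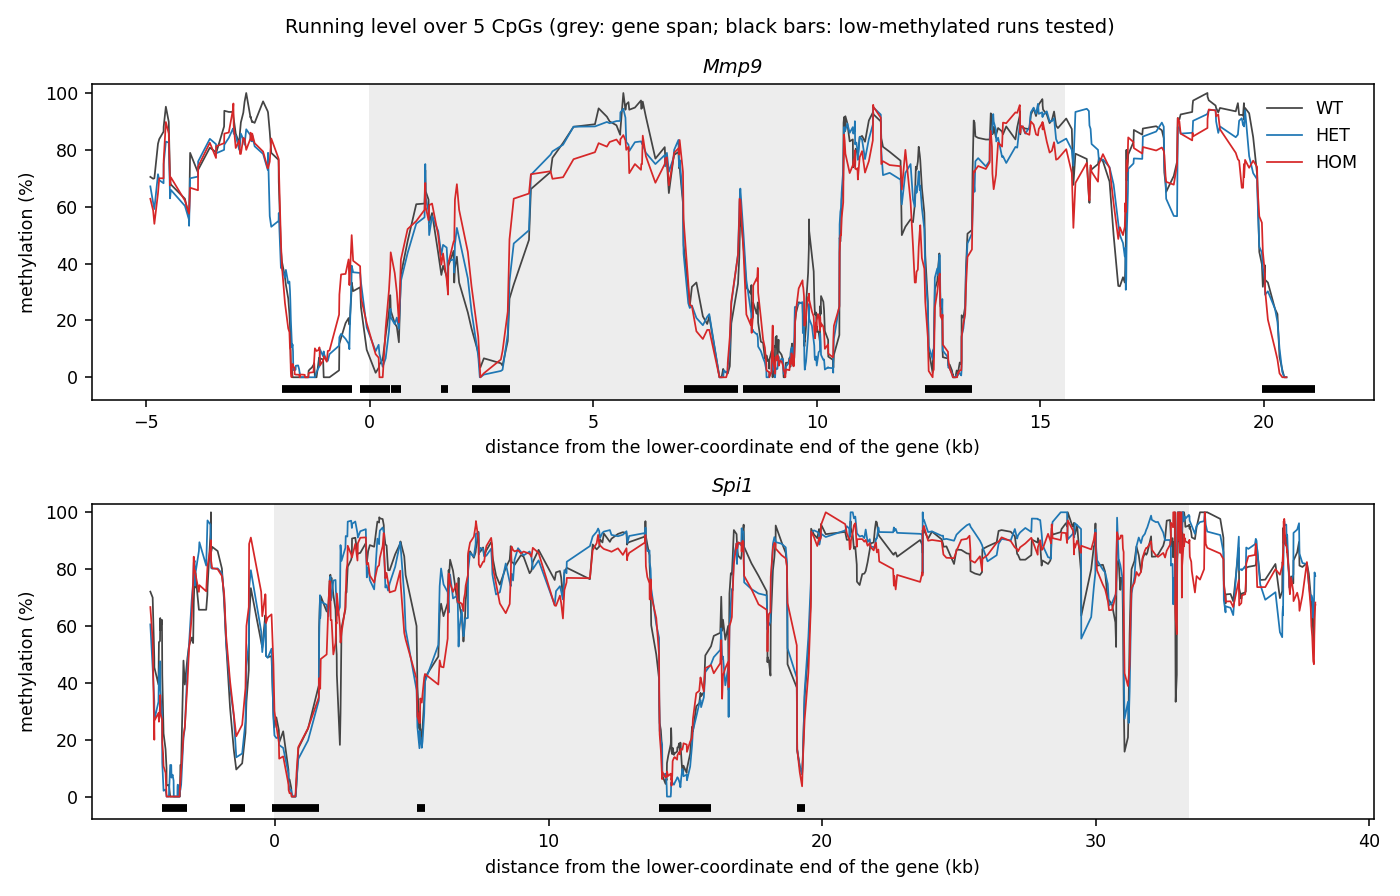
Running CpG methylation (%) over 5 CpGs along Mmp9 and Spi1 against distance (kb) from the lower-coordinate end, for WT, HET and HOM. The grey bar is the gene span and black bars are tested low-methylated runs, of which Mmp9 has 9 and Spi1 has 6. Mmp9 stays low over long stretches of its span. Below its lower-coordinate end the flank, summed over unevenly spread reads, stands at 47.8% in WT and 32.6% in HOM.

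Of the receptors and surface proteins, Itgam encodes the integrin subunit CD11b, Csf1r the receptor for the macrophage growth factor CSF1, and Fcer1g the signalling chain shared by several Fc receptors. The Itgam start window (chromosome 7, 128061640 to 128063139, 24 CpGs) stood at 64.1%, 75.5% and 70.6% in WT, HET and HOM, from 312, 539 and 326 CpG reads. HET exceeded WT by 11.4 points (5.03 to 17.9, Fisher's exact test, Benjamini-Hochberg adjusted p = 0.0165), with an interval of 1.03 to 23.7 when each read counted 1 time. The run across the Itgam start was low in all libraries, at 14.1%, 6.82% and 6.35% from 92, 88 and 63 of the window's CpG reads, and HET took the smallest share of its reads from it. Averaged over CpGs, HET minus WT at the start window was 7.16 points, and it was 5.35 points in the wider window, without a call. At the CpG at position -109 bp from the Itgam start, 0 reads of 13, 13 and 9 were methylated.

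Some Itgam CpGs were read in 1 library only. The CpG at position -231 bp had 9 reads in WT and 0 in HET and HOM, and that at 140 bp had 17 in WT and 0 in both others. Over all members, 102 CpGs had 0 reads in at least 1 library and at least 10 in another, and WT lacked reads at 54 of them, HET at 25 and HOM at 33. The cause of these gaps was not tested. The Itgam body, with 451 CpGs, stood at 83.1%, 82.5% and 81.3% in WT, HET and HOM, and HOM minus WT was -1.78 points (-3.14 to -0.407).

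The lower-coordinate end of Csf1r stood at 60.1%, 50.5% and 47.9% in WT, HET and HOM, without a call. Its upper-coordinate end (chromosome 18, 61130640 to 61132139, 21 CpGs) stood at 74.1%, 62.0% and 71.0%, from 332, 445 and 383 CpG reads. HET was the low library there, by -12.1 points against WT (-18.4 to -5.44, Fisher's exact test, Benjamini-Hochberg adjusted p = 0.0134), and by -5.56 points when CpGs were averaged. Counting each read 1 time gave -23.2 to -0.822, and the wider window gave -8.15 points, under the size of a call. The Csf1r body stood at 81.9%, 81.5% and 78.4%, and HOM minus WT was -3.52 points (-5.14 to -1.88). Both Csf1r runs were near 20% in every library, run 1 at 20.4%, 19.4% and 18.6% and run 2 at 24.1%, 20.3% and 23.9%.

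The Fcer1g start window (chromosome 1, 171233850 to 171235349, 29 CpGs) stood at 48.0%, 51.0% and 59.3% in WT, HET and HOM, from 250, 549 and 460 CpG reads. HOM exceeded WT by 11.3 points (3.68 to 18.9, Fisher's exact test, Benjamini-Hochberg adjusted p = 0.0448), and with each read counted 1 time the interval was -6.47 to 28.7. HOM minus WT was 22.3 points in the window of 500 bp on each side of the start, and 4.45 points in the wider window, without a call. The run across the Fcer1g start (171234173 to 171234417, 13 CpGs) gave the widest difference of any member region, at 15.2%, 29.3% and 48.7% in WT, HET and HOM. HOM exceeded WT by 33.5 points (22.8 to 42.2, adjusted p = 1.74e-06 by the same exact test) and HET by 19.4 points (10.8 to 27.7, adjusted p = 0.000805 by that exact test).

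WT was thinly covered in that Fcer1g run, with 92 CpG reads against 256 in HET and 236 in HOM, and 3 of its 13 CpGs had no WT read. HOM was higher than WT at all 9 CpGs with at least 5 reads in every library. The reads came to about 12 in WT and 31 in HOM when each was counted 1 time, and the interval of HOM minus WT was then -0.855 to 52.3 points and that of HOM minus HET -4.48 to 39.9. With the run found on WT alone, HOM minus HET was 11.9 points. The other Fcer1g run, inside the gene, stood at 13.1%, 17.4% and 14.5%, with no call. The Fcer1g body was low among gene bodies, at 46.7% in WT (percentile 8.90), 42.5% in HET and 44.0% in HOM. At the 3′ end of Fcer1g HOM was the low library, with 90.8%, 93.0% and 82.9% in WT, HET and HOM, and it lay below HET by -10.1 points (-15.1 to -5.47, Fisher's exact test, Benjamini-Hochberg adjusted p = 0.000951). Counting each read 1 time gave -18.0 to -1.72, and this call was lost with levels scaled to equal open sea (-7.26 points) and in the wider window (-5.12 points).

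**Figure D3:**
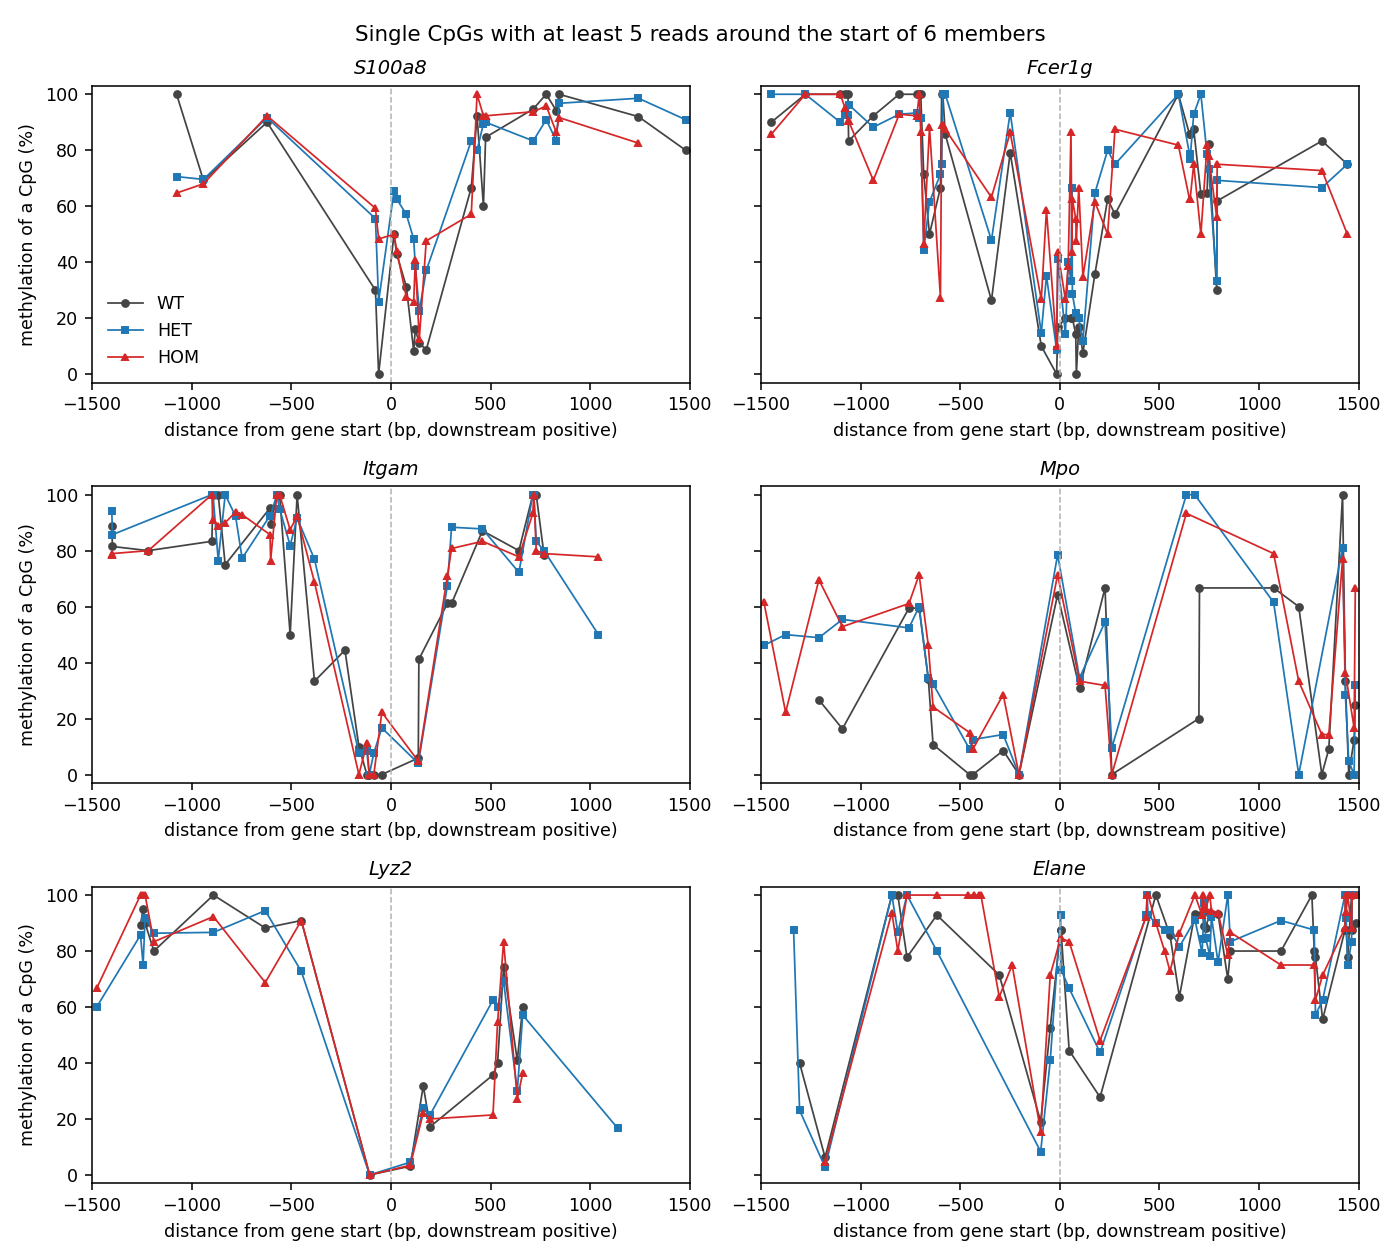
Methylation (%) of single CpGs with at least 5 reads against distance (bp) from the start of 6 members whose start is known, in WT, HET and HOM. Each point is 1 CpG of 1 library and the dashed line is the gene start. WT lies below HOM at 7 of 9 CpGs of the S100a8 run and at all 9 such CpGs of the Fcer1g run, while single CpGs of Lyz2 and Itgam reach 0% in all libraries.

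Spi1, the gene of PU.1, had 6 tested runs. The lower-coordinate end of Spi1 stood at 41.9%, 41.6% and 50.2% in WT, HET and HOM, and HOM exceeded WT by 8.27 points, with 0 inside the interval (-0.329 to 16.7). Its upper-coordinate end, the only member window that overlaps a CpG island, was highly methylated, at 94.0%, 94.4% and 85.8%. HOM was lower than WT there by -8.26 points (-12.9 to -3.64, Fisher's exact test, Benjamini-Hochberg adjusted p = 0.0133), under the 10 points of a call. The Spi1 body (405 CpGs) stood at 71.3%, 69.4% and 66.2% in WT, HET and HOM, and HOM minus WT was -5.12 points (-6.90 to -3.32), the largest body difference in that comparison after those of S100a9 and Lyz2. Run 4 (chromosome 2, 91087551 to 91087860, 10 CpGs) stood at 24.1%, 18.4% and 30.9%, and HOM exceeded HET by 12.5 points (4.69 to 20.2, adjusted p = 0.0318 by the same exact test). With each read counted 1 time that interval was -3.15 to 27.8, and with runs found on WT alone the call was lost at 12.4 points.

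In WT, the 7 known start windows were ordered Mpo (31.0%), Lyz2 (35.2%), S100a8 (36.5%), Fcer1g (48.0%), Itgam (64.1%), Elane (64.4%) and S100a9 (82.0%). The first 3 had overlapping intervals, as did Itgam and Elane, the interval of Fcer1g (41.9 to 54.2%) overlapped that of S100a8 at its edge, and the intervals of S100a9 (74.2 to 87.8%) and Elane (56.8 to 71.4%) did not overlap. These intervals count every CpG of a read and are too narrow. The median of the 7 was 48.0%, 59.7% and 59.3% in WT, HET and HOM, while the median of all 15113 known start windows was 14.7%, 15.2% and 13.3%. Each of the 7 thus stood above the median of all start windows in every library, and none overlapped a CpG island.

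Of 39 runs found near the members, 32 were tested, 14 inside a gene, 12 outside and 6 across an end. Between HOM and WT, 3 of 32 were called, all higher (S100a8, Fcer1g and Mpo, given above), against 4.98% of 76772 runs called, 3.14% higher and 1.84% lower. Between HET and WT, 1 was called, higher, which is near the 3.88% of all runs called (1.72% higher, 2.16% lower). Between HOM and HET, 2 were called, both higher, against 4.83% (3.11% higher, 1.72% lower). The median difference over the 32 runs was 1.31 points between HOM and WT and -0.09 over all runs. All 3 runs called between HOM and WT lay at or across a gene start, and the 9 runs of Mmp9, the 4 near Elane and the 3 at Itgam included no call.

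**Figure D4:**
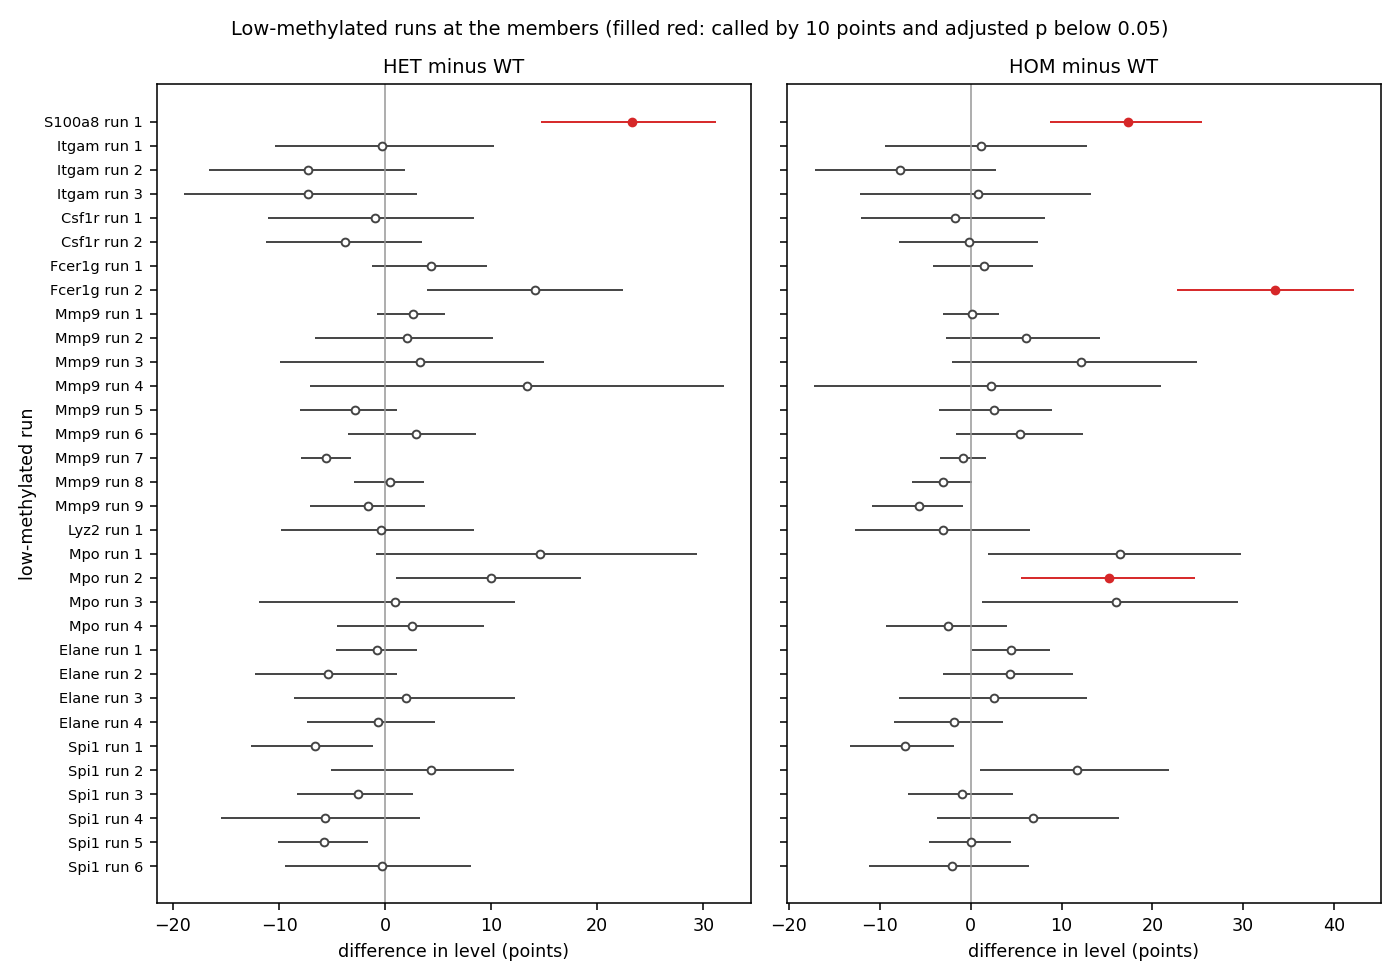
Difference in level (percentage points) of the 32 low-methylated runs, listed by gene, for HET minus WT (left) and HOM minus WT (right). Points are differences, bars are 95% Newcombe intervals and filled red points are called. The called runs of S100a8, Fcer1g and Mpo lie 15.3 to 33.5 points above 0 between HOM and WT.

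Bodies, the spans without 500 bp at either end, were tested for 9 members, since S100a8 is too short. Between HOM and WT none was called, against 3.21% of 18119 bodies (0.276% higher, 2.94% lower). The differences were below 0 for 8 of 9 members, as for 86.8% of all bodies, and the median was -2.62 points beside -3.24 over all. Between HET and WT 1 body was called, that of Lyz2, against 1.32% (0.519% higher, 0.806% lower), and between HOM and HET the same body was called lower, against 2.27% (0.259% higher, 2.01% lower).

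A list of 46 other myeloid genes, of which 43 were tested at 86 end windows, holds transcription factors, receptors, granule proteins and oxidase subunits. Between HOM and WT, 0 of 86 windows were higher and 4 were lower, against the 0.997% and 4.22% of all windows given above. These were the start of Csf2ra, a cytokine receptor subunit gene (62.7%, 56.4% and 51.0% in WT, HET and HOM), the start of Epx, eosinophil peroxidase (82.1%, 75.2% and 71.8%), the 3′ end of Fcgr1, an Fc receptor (85.6%, 86.7% and 73.6%), and the 3′ end of Retnlg (94.5%, 91.4% and 76.7%). With levels scaled to equal open sea, 0 windows of the list were called between HOM and WT. Between HET and WT, 1 window was higher, the lower-coordinate end of Cebpe (77.8%, 89.5% and 80.0%), and 2 were lower, the 3′ ends of Cebpb (37.7%, 24.8% and 30.3%) and Irf8 (48.3%, 31.9% and 45.1%), genes of transcription factors. Between HOM and HET, 1 was higher (Irf8) and 3 were lower (the start of Ccr2 at 74.2%, 82.9% and 67.9%, the 3′ end of Fcgr1, and the start of Itgax at 70.5%, 71.4% and 60.7%). The 5 known start windows of the list's 7 transcription factors had maxima of 9.54%, 12.1% and 4.72% in WT, HET and HOM, while the 12 of the granule and secreted proteins ranged from 29.1% to 86.3% in WT.

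Markers of other cells were measured at known start windows as a check of the label. All 8 B cell windows were below 50% in every library, with medians of 32.9%, 24.6% and 27.7%. Among them, Ebf1 stood at 1.004%, 0.281% and 0.556% in WT, HET and HOM, Pax5 at 9.42%, 4.52% and 4.77%, and Cr2 at 11.7%, 10.7% and 8.17%. Of the 8, 0 were called higher and 2 lower in HET than in WT, and 0 higher and 1 lower between HOM and WT. The 9 T cell windows had a median of 53.2%, 72.0% and 54.6% in WT, HET and HOM, ranging from 5.79% to 71.3% in WT, 3.97% to 80.1% in HET and 6.73% to 63.7% in HOM. Of these, 3 in WT, 3 in HET and 2 in HOM were below 50%. Of the 9, 4 were called higher in HET than in WT. Between HOM and WT the calls were 2 higher and 1 lower, and between HOM and HET 0 higher and 5 lower. Among all 15113 known start windows, 203 were called higher and 196 lower between HET and WT, 156 and 527 between HOM and WT, and 104 and 458 between HOM and HET. The 7 NK cell windows had medians of 49.3%, 44.6% and 42.3%, and the 7 erythroid and platelet windows 51.8%, 60.2% and 57.1%. The NK cell windows ranged from 1.12% to 74.5% in WT, 1.40% to 85.5% in HET and 1.87% to 82.1% in HOM, and the erythroid and platelet windows from 20.8% to 81.3%, 25.9% to 78.7% and 30.4% to 76.7%, and none of either list was called against WT. The part of other cells in the results was not tested.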

How the data were processed

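Counts of methylated and of covering reads were deposited per CpG and genotype, per the file headers, and their values are raw whole numbers. Per the labels' protocols, DNA (200 ng) was sheared to a mean of 800 bp, treated with bisulfite and read in pairs of 150 bp. The submitters' processing notes name mm10 among the builds and 2 sets of tools, Bismark with Bowtie2, Trim Galore 0.2.8 and Picard 1.91, and MethylDackel with BWA 0.7.13 and Picard 2.3.0. The set behind these columns, and any filter, are not given in the sources used here. Replicates and blood were not analysed here.

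The members and lists were chosen with earlier results of these data known. Gene spans came from RefSeq (GRCm38.p6), and starts and promoters from its promoter table. Autosomal end windows and runs needed 30 CpG reads in every library, windows also 3 CpGs, and bodies 5 CpGs and 50 reads. CpG islands were segments that gained 17 for a CpG and lost 1 for another base, longer than 200 bp with at least 6 CpGs per 100 bp. Named genes are the members, their neighbours, up to 4 called genes of the other myeloid list per comparison, and the 3 B cell markers with the lowest start level in WT. Levels, Wilson and Newcombe intervals and two-sided Fisher's exact tests with Benjamini-Hochberg adjustment were computed in Python 3.11.15 with NumPy 2.4.6, pandas 2.3.3, SciPy 1.17.1 and numba 0.67.0, and the script was tested on simulated data. Scaling to equal open sea set each library to the same level outside islands. The tests count every CpG of a read separately, which narrows the intervals. Alternatives changed the depth minimum, the difference called, the windows, the run limit, the library that defines runs, the averaging of CpGs and the counting of reads.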

Additional observations from a re-analysis of the deposited data

How the results depend on the processing

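No paired analysis was possible because the table holds 1 set of counts per genotype, and for the same reason no replicate could be left out. No called difference reversed under any alternative run. Dividing counts by the CpGs of a read left 0 calls at the members' end windows, bodies and runs and at the other myeloid genes in every comparison, and the fewer counts are the construction of that setting. Requiring 20 points left 3 of 16 member calls: 1 end window between HET and WT, 0 end windows in the other comparisons, 0 bodies, and among runs 1 between HOM and WT and 0 between HOM and HET. It left 0 of the other myeloid windows. Requiring 100 reads kept all 14 calls that could be tested, with 1 run called between HOM and HET. CpGs with at least 5 reads in every library kept 13 of 16 calls, and the Fcer1g start, the Itgam start and the upper-coordinate end of Mmp9 lost theirs. Scaling to equal open sea kept 14, lost those between HOM and HET at Fcer1g and Mmp9, and gained 5.

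End windows of 500 bp on each side kept 5 of 8 calls, and other windows gained calls. These windows gave 3 higher and 1 lower between HOM and WT, and 1 higher and 1 lower between HET and WT. Between HOM and HET they gave 2 higher and 1 lower. Windows of 2000 bp outside to 1000 bp inside kept 2 calls, both at S100a8, and other windows gained calls. They gave 2 higher and 1 lower between HOM and WT, 2 higher between HET and WT, and 1 lower between HOM and HET. A run limit of 30% left 0 calls among the runs between HOM and WT and 0 between HET and WT, where the S100a8 and Fcer1g runs had no match and the Mpo run lost its call (14.8 points, adjusted p = 0.117 by Fisher's exact test). Runs found on the library not compared kept 4 of the 5 calls that had a match, the Spi1 run losing its call (adjusted p = 0.0592 by the same exact test), and the S100a8 run between HOM and WT had no match. For the other myeloid genes between HOM and WT, calls numbered 1 with at least 5 reads per CpG, 0 after scaling to open sea, 2 in windows of 500 bp and 7 in the wider ones, and in windows of 500 bp there was 1 call between HET and WT and 1 between HOM and HET. The cause was not tested. Member end windows, pooled, stood at 66.9%, 68.0% and 66.5% in WT, HET and HOM, and as a mean over CpGs 69.5%, 72.4% and 70.7%. With at least 5 reads per CpG it was 66.3% in HET. Averaging the called regions over CpGs was added after seeing the data, and all 16 differences kept their sign. Depth limits the thinnest windows most, as at the upper-coordinate end of Itgam, where 47, 80 and 39 CpG reads gave an interval of -8.84 to 21.3 points for HOM minus WT.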
